A study of Mus musculus with 20 samples.

Results

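Blood vessel transcripts were followed in sorted sensory neurons with 10 marker genes, 7 of endothelial cells (Pecam1, Cdh5, Kdr, Flt1, Cldn5, Tek, Tie1) and 3 of the mural cells that wrap vessels (Pdgfrb, Rgs5, Acta2). They were chosen as vessel markers, by name, with earlier results of these data known, and found by Ensembl identifier among the 37620 genes listed. Each identifier occurred once, each member had a value in all 20 libraries, and the number of empty cells was 0 for the members.

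RNA came from dorsal root ganglia (DRG) of adult homozygous Trpv1tm2Bbm mice (stock B6.129-Trpv1tm2Bbm/J) of 6 to 8 weeks. In this line the Trpv1 locus drives placental alkaline phosphatase and nuclear lacZ, so cells with Trpv1 activity cleave a galactosidase substrate to the dye DDAO, and the brightest fraction of DDAO-positive cells was sorted. The 4 groups were lumbar (L4-5) and sacral (L6-S1) ganglia of 5 male and 5 female donors, and all carried the same homozygous allele, so no wild-type group was compared. Each donor gave 1 lumbar and 1 sacral library, called here by donor (M1 to M5 and F1 to F5). The titles carry 2 animal numbers per donor where the methods count 1 mouse, and whether animals were pooled was not given in the sources used here.

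Endothelial cells line every vessel and hold it closed through adherens and tight junctions. They read VEGF through the receptor tyrosine kinases Kdr and Flt1, and angiopoietins through Tek with its partner Tie1. Pericytes and smooth muscle cells, the mural cells, are drawn to the vessel through the PDGF receptor Pdgfrb and, in arterioles, contract with smooth muscle actin. Sensory ganglia are richly supplied with capillaries, and vessel cells are released with the neurons when a ganglion is dissociated.

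Promoter sequence is shown for 4 members. They were taken because 3 of them (Flt1, Tek, Tie1) moved together from library to library, and the last (Rgs5) differed between the levels in the opposite direction. The RefSeq table (GRCm38.p6) matched 7 of the 10 members, and gave for each 250 bases before and 50 after the start. Capitals mark, on either strand, the letters GGAAG, which form the core of sites for factors of the ETS family, the letters AGATAA, bound by zinc finger factors of blood and vessel development, and the letters TATAAA of the classical core promoter box.
Flt1: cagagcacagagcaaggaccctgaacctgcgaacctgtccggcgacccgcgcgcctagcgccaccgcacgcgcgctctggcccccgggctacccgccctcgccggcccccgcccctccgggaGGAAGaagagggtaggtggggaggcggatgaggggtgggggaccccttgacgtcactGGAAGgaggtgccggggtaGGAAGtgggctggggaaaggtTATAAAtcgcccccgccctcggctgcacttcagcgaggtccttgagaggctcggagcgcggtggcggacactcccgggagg
Tek: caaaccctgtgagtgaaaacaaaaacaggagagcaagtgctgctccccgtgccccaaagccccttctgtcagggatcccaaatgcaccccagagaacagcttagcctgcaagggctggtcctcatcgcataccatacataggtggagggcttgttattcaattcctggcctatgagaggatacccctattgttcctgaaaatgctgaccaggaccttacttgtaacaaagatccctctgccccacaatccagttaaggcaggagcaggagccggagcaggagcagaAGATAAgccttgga
Tie1: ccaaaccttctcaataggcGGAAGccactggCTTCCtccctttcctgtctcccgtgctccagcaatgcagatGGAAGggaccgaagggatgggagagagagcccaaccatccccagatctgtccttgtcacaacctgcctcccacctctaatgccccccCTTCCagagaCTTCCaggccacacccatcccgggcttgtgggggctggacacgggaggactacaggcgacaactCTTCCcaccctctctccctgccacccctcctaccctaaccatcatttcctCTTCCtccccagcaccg
Rgs5: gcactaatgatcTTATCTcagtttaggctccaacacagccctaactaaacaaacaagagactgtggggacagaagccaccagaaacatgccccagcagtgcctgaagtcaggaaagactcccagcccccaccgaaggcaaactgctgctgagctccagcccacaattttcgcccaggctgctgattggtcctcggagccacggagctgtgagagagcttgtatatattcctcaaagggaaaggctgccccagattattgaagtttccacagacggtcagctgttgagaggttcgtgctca
These windows lie at chr5:147725962-147726261 (minus strand) for Flt1, chr4:94739039-94739338 (plus strand) for Tek, chr4:118489800-118490099 (minus strand) for Tie1 and chr1:169655251-169655550 (plus strand) for Rgs5. GGAAG occurred 7 times in the Tie1 window and 3 times in the Flt1 window, and was not in the windows of Tek and Rgs5. Of 32851 promoter windows of this length, 71.4% hold GGAAG, so its presence does not set these genes apart. AGATAA occurred 1 time each in Tek and Rgs5 (11.2% of all windows hold it) and TATAAA 1 time in Flt1 (13.6%). The longer ETS site CCGGAAG (8.86% of windows), whose last 5 letters are the core searched above, was not found in any of the 7 matched windows. The same search found GGAAG 1 time in Kdr and 2 times in Acta2, and none of the 4 motifs in Cldn5.

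The deposited values are log2 RPKM, which puts reads on a scale of gene length and sequencing depth. Worked back to reads, the lumbar libraries held 43906566 to 62514206 and the sacral ones 46762722 to 66407317, and 20720 to 22507 genes were measured in each. The middle of the differences over all genes tested was -0.11 (log2, lumbar minus sacral), and it was -0.02 after quantile normalization, 0.01 with TMM factors on worked-back reads and -0.43 with reads scaled to the library total. Libraries of donor F2 stood apart for vessel genes. The lumbar F2 library was the lowest of 10 lumbar libraries for 7 of 7 endothelial members, and the sacral F2 library was the lowest of 10 for 5 of 7. Donor M3 gave the highest value for 5 of 7 endothelial members at each level. The summed level of 10 neuron genes was 2160 to 3206 RPKM in lumbar and 2818 to 3743 RPKM in sacral libraries. No unsorted library was among the 20, so these sums do not check the sort. The 10 glial genes summed to 1509 to 3111 RPKM in lumbar and 980 to 1609 RPKM in sacral libraries. The 7 endothelial members together reached 9.51 to 68.1 RPKM in lumbar libraries (median 33.8) and 7.57 to 33.5 RPKM in sacral libraries (median 20.3), so the endothelial label was met at a low level beside the neuronal genes.

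The levels of the members covered a wide range. Rgs5, a regulator of G-protein signaling used as a pericyte marker, stood highest, with a mean of 6.94 ± 0.34 log2 RPKM (SD, n = 20), at percentile 99.3 of the mean levels of all genes with a value. Cdh5 followed at 3.24 ± 0.87, then Acta2 at 2.35 ± 1.56, Flt1 at 2.24 ± 1.01, Pecam1 at 1.92 ± 0.87, Cldn5 at 1.14 ± 1.20, Pdgfrb at 0.94 ± 0.55, Tek at 0.71 ± 0.92, Kdr at 0.66 ± 0.92 and Tie1 at -0.43 ± 0.82 (same scale and n). Between neighbours in this order, the difference within libraries was larger than 1 SD of that difference for 3 pairs. These were Rgs5 over Cdh5 (3.70 ± 0.98 log2), Pecam1 over Cldn5 (0.78 ± 0.53) and Kdr over Tie1 (1.09 ± 0.53). For the other 6 neighbouring pairs it was within 1 SD, which describes single libraries and not the error of the mean. Rgs5 was above Cdh5 in 20 of 20 libraries. Among the 6, Cdh5 was above Acta2 in 17 of 20, Flt1 above Pecam1 in 16 and Cldn5 above Pdgfrb in 13. Tek was above Kdr in 11, and Acta2 above Flt1 and Pdgfrb above Tek in 10 each.

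**Figure D1:**
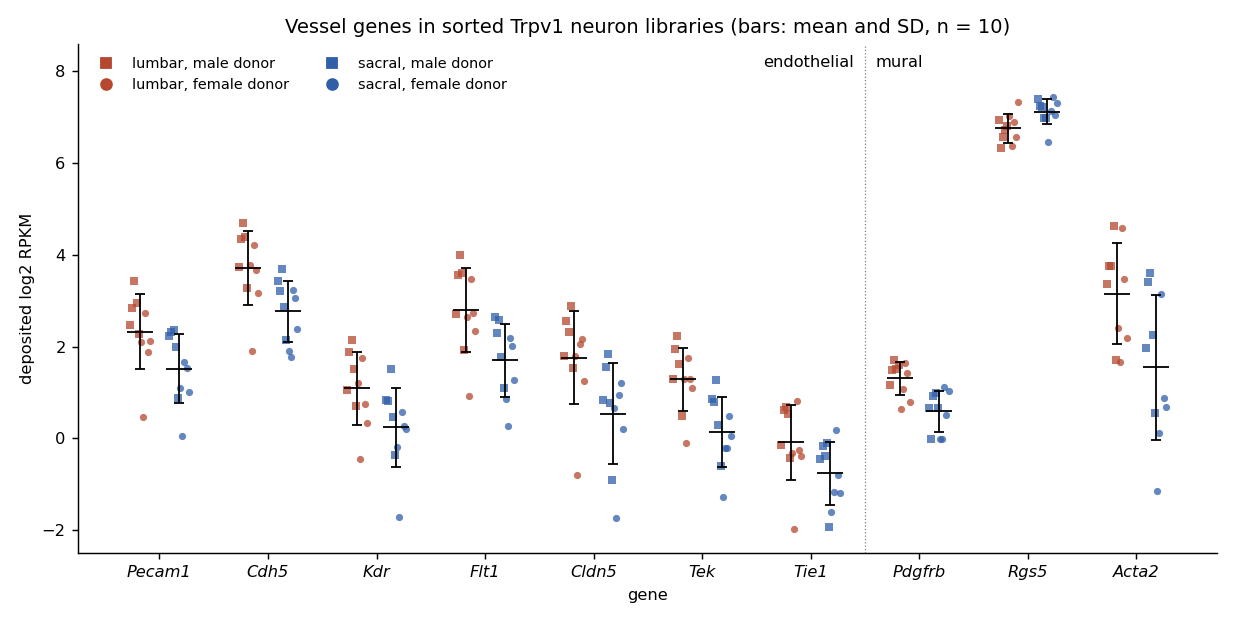
Deposited log2 RPKM (vertical axis) of the 7 endothelial and 3 mural genes (horizontal axis) in each library, in red for lumbar and blue for sacral, squares for male and circles for female donors, with bars for the mean and SD of 10 libraries. Rgs5 lies above 6.33 in every library, Acta2 spreads most widely, and the lumbar and sacral points of each gene overlap.

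Rgs5 went against its label as a pericyte gene in these libraries. Other pericyte markers were low, with a mean of -1.23 log2 RPKM for Abcc9 and -1.95 for Kcnj8, the 2 subunits of the pericyte potassium channel, and Higd1b had a value in 6 of 10 lumbar and 7 of 10 sacral libraries. Rgs5 carried 14607 to 50116 reads per library, against 310 to 803 reads for Pdgfrb. It is therefore described below as a member by its rule and not as a measure of pericytes.

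Lumbar and sacral libraries were compared to ask whether the vessel transcripts differed between the ganglia of the limb and those that also hold pelvic visceral neurons. Endothelial genes were higher in lumbar libraries, by 1.60-fold (Tie1, which did not pass the test) to 2.32-fold (Cldn5), and so were Pdgfrb and Acta2. Rgs5 was higher in sacral libraries, but this call was lost in female donors alone and with a glial or macrophage mean as a covariate. It was also lost after quantile normalization, with TMM factors and at an adjusted p of 0.01. By limma with donor as a block and Benjamini-Hochberg adjustment over 16304 genes, 8 of 10 members passed an adjusted p of 0.05 as higher in lumbar, where 15.3% of all genes did, and 1 of 10 (Rgs5) as higher in sacral, where 30.3% did. For 7 members the lumbar library was the higher in 10 of 10 donors, a pattern shown in the same direction by 6.55% of 15318 genes with a value in every library. The lumbar and sacral ranges overlapped for 10 of 10 members, and 1.71% of those 15318 genes had ranges that did not overlap. The count of 8 was 6 in male donors alone (1669 of 15978 genes higher in lumbar) and 3 in female donors alone (1152 of 15702). It was 0 with the mean of glial genes (5 of 16304 genes) or of macrophage genes (706 of 16304) as a covariate. Of 10 glial genes, 9 were higher in lumbar too. All 10 members passed the filter on low values at both levels. In these bulk libraries, fewer vessel cells and less RNA per vessel cell cannot be told apart. The sort took DDAO-positive cells to enrich for Trpv1 neurons and was not set to collect vessel cells. Whether vessel cells became DDAO-positive, and the source of the vessel RNA, were not tested. P-values come from a fit with donors as the replicates, since each donor gave 1 library per level. Their error combines the spread between and within donors through 1 correlation for all genes (0.17). It is also partly borrowed from other genes.

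Among adhesion and junction genes, Pecam1 (ENSMUSG00000020717, mm9 chromosome 11, 106515531 to 106611942, minus strand), which encodes the adhesion molecule CD31, ranged from 0.45 to 3.43 log2 RPKM in lumbar libraries (median 2.37) and from 0.05 to 2.37 in sacral libraries (median 1.60). F2 was lowest and M3 highest at both levels. Its lumbar minus sacral difference was 0.81 ± 0.23 (log2, SE, limma adjusted p = 0.0061), or 1.76-fold, and lay between 0.23 in M1 and 1.40 in M5. An annotated U3 gene overlaps Pecam1 on the opposite strand, and whether counting used the strand was not given in the sources used here. No other member overlaps an annotated gene.

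Cdh5 (ENSMUSG00000031871, chromosome 8, 106625525 to 106668402, plus strand), the cadherin of endothelial adherens junctions, was the most abundant endothelial member. It ran from 1.91 to 4.69 log2 RPKM in lumbar libraries (median 3.75) and from 1.78 to 3.68 in sacral libraries (median 2.96), again with F2 lowest and M3 highest in each. The level difference was 0.95 ± 0.24 (log2, SE, adjusted p = 0.0028 in limma), a 1.93-fold rise. Single donors differed by 0.13 in F2, where both libraries were low, up to 1.89 in F1.

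Cldn5 (ENSMUSG00000041378, chromosome 16, 18776940 to 18778353, plus strand), the claudin that seals endothelial tight junctions, had the largest difference and the fewest reads of the 7 endothelial members, 25 to 492 per library. Its lumbar values ran from -0.80 to 2.88 log2 RPKM (median 1.93) and its sacral values from -1.73 to 1.83 (median 0.81), with F2 lowest in each. The difference of 1.22 ± 0.35 (log2, SE, limma adjusted p = 0.0077) corresponds to 2.32-fold, with donors from 0.48 (M3) to 2.43 (M5). At its fewest reads the counting error was 0.29 on the log2 scale. The SD between libraries was 1.02 at the lumbar and 1.10 at the sacral level.

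The VEGF receptors were both higher in lumbar libraries. Flt1 (ENSMUSG00000029648, chromosome 5, 148373180 to 148537587, minus strand), VEGF receptor 1, which binds VEGF tightly and signals weakly, ran from 0.93 to 3.99 log2 RPKM in lumbar libraries (median 2.73) and from 0.26 to 2.65 in sacral libraries (median 1.89). The F2 libraries were lowest, and M3 (lumbar) and M1 (sacral) were highest. The difference was 1.09 ± 0.28 (log2, SE, adjusted p = 0.0031 by limma), or 2.13-fold, from 0.07 in M1 to 1.83 in M4.

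Kdr (ENSMUSG00000062960, chromosome 5, 76328852 to 76374483, minus strand), VEGF receptor 2, the main signaling receptor, was lower than Flt1 at both levels. Its values were -0.46 to 2.14 log2 RPKM in lumbar libraries (median 1.13) and -1.72 to 1.50 in sacral libraries (median 0.36), where F2 was lowest and M3 highest. The difference was 0.85 ± 0.27 (log2, SE, limma adjusted p = 0.013), a 1.80-fold rise. The Kdr to Flt1 difference within a library was -1.70 ± 0.29 log2 in lumbar and -1.46 ± 0.33 in sacral libraries (SD, n = 10), and it was the lower at the lumbar level in 7 of 10 donors.

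Of the angiopoietin receptors, Tek (ENSMUSG00000006386, chromosome 4, 94405980 to 94541667, plus strand), also known as Tie2, had the smallest adjusted p of the members. It ran from -0.10 to 2.23 log2 RPKM in lumbar libraries (median 1.30) and from -1.29 to 1.26 in sacral libraries (median 0.17), lowest in F2 and in F1 and highest in M3 at both levels. The difference was 1.15 ± 0.25 (log2, SE, limma adjusted p = 0.00087), or 2.22-fold, with F1 showing 2.58 and F2 0.10.

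Tie1 (ENSMUSG00000033191, chromosome 4, 118143796 to 118162666, minus strand), the orphan receptor that modulates Tek, was the lowest member. Lumbar libraries ran from -1.97 (F2) to 0.80 log2 RPKM (F3) with a median of -0.20, and sacral libraries from -1.94 (M5) to 0.17 (F3) with a median of -0.62. The difference of 0.68 ± 0.28 (log2, SE) did not pass the test (limma adjusted p = 0.054), whereas it passed with donor as a fixed effect in the same paired libraries (0.68 ± 0.22, limma adjusted p = 0.024). It was positive in 9 of 10 donors and -0.80 in F2. Leaving out any other donor gave 0.58 to 0.75 (limma adjusted p of 0.053 to 0.12) and no call. Without F2, the donor with the negative difference, it was 0.84 ± 0.26 with an adjusted p of 0.013, which is given as a description, and 9 of 10 members were then higher in lumbar (15.2% of all genes). The distance from Tie1 to Tek was -1.38 ± 0.31 log2 in lumbar and -0.91 ± 0.61 in sacral libraries (SD, n = 10), lower at the lumbar level in 8 of 10 donors.

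The mural members did not move as a group. Acta2 (ENSMUSG00000035783, chromosome 19, 34315580 to 34329826, minus strand), smooth muscle alpha actin, had the largest difference of all members and the widest spread. Lumbar values ran from 1.67 (F2) to 4.63 log2 RPKM (M4) with a median of 3.43, and sacral values from -1.15 (F1) to 3.61 (M3) with a median of 1.42. The difference was 1.61 ± 0.43 (log2, SE, limma adjusted p = 0.0045), or 3.05-fold, but single donors reached from 0.14 in M3 to 3.56 in F1. The reads behind Acta2 were 46 to 2077 per library.

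Pdgfrb (ENSMUSG00000024620, chromosome 18, 61204804 to 61244715, plus strand), the PDGF receptor of pericytes, varied less. It ran from 0.64 to 1.71 log2 RPKM in lumbar libraries (median 1.46) and from -0.02 to 1.12 in sacral libraries (median 0.66). The difference was 0.72 ± 0.16 (log2, SE, limma adjusted p = 0.0012), a 1.65-fold rise in lumbar libraries, present in 9 of 10 donors. Donor F5 showed -0.24. F2 was not the lowest lumbar library for this gene, which was F1 at 0.64.

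Rgs5 (ENSMUSG00000026678, chromosome 1, 171585632 to 171625944, plus strand) went the other way. Lumbar libraries ran from 6.33 (M2) to 7.33 log2 RPKM (F5) with a median of 6.77, and sacral libraries from 6.47 (F1) to 7.44 (F3) with a median of 7.18. The lumbar minus sacral difference was -0.37 ± 0.12 (log2, SE, limma adjusted p = 0.015). This was a 1.29-fold higher level in sacral libraries, seen in 8 of 10 donors. F1 (0.56) and F5 (0.02) were the exceptions. The call depended on the scaling, since the difference was -0.11 (adjusted p = 0.46) after quantile normalization, -0.26 (adjusted p = 0.083) with TMM factors and -0.69 (adjusted p = 8.9e-05) with reads over the library total, where 21.1%, 21.7% and 58.4% of all genes were called higher in sacral. Relative to the median of all genes it was -0.26 as reported, -0.09 after quantile normalization, -0.26 with TMM factors and -0.27 over the library total. Within a library, Rgs5 exceeded Pdgfrb by 5.46 ± 0.59 log2 at the lumbar and 6.54 ± 0.40 at the sacral level (SD, n = 10). The gap was smaller at the lumbar level in 9 of 10 donors.

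**Figure D2:**
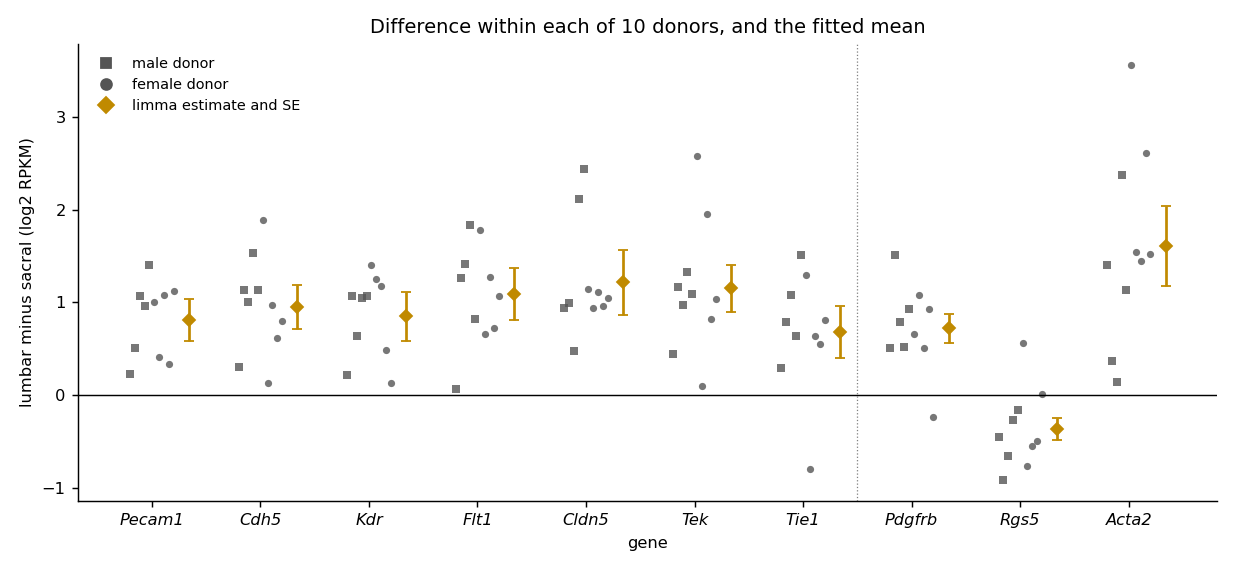
Lumbar minus sacral difference in log2 RPKM (vertical axis) within each of 10 donors (grey squares male, grey circles female) for each gene (horizontal axis), beside the limma estimate with its SE (gold diamond). Points of 7 genes lie above 0 in 10 of 10 donors, Tie1 has F2 at -0.80, and 8 of 10 Rgs5 points lie below 0.

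The size of the differences depended on the scaling. With reads over the library total they were 0.48 for Pecam1, 0.62 for Cdh5, 0.52 for Kdr, 0.34 for Tie1 and 0.38 for Pdgfrb, each over 1.5 times smaller than reported (log2). The 8 members called higher in lumbar passed there too (limma adjusted p of 0.0018 to 0.047), and Tie1 did not (adjusted p = 0.21). At that scaling 1404 of 16422 genes were higher in lumbar. With TMM factors the 8 passed and so did Tie1, at 0.74 (limma adjusted p = 0.031), where 3497 of 16422 genes were higher in lumbar. After quantile normalization Tie1 was 0.56 (limma adjusted p = 0.10). Relative to the median of all genes, the differences of Pdgfrb, Pecam1, Kdr and Cdh5 were 0.83, 0.92, 0.96 and 1.06 as reported and 0.81, 0.91, 0.94 and 1.05 over the library total. At a pseudocount of 1, which lowers the differences of genes with low values, Kdr was 0.51, Tek 0.70, Tie1 0.31, Cldn5 0.81 and Pdgfrb 0.47. These 5 passed (limma adjusted p of 0.00063 to 0.032), where 2633 of 16422 genes were higher in lumbar.

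Without donor F2, whose libraries were lowest for most endothelial members, the differences were 0.80 (Kdr) to 1.30 (Tek) among the 6 endothelial members that had passed, 1.68 for Acta2, 0.66 for Pdgfrb and -0.30 for Rgs5 (log2, limma adjusted p of 0.045 at most). Across donors, the mean difference over the endothelial members was smallest in M1 (0.36) and F2 (0.39) and largest in F1 (1.58). All 7 endothelial members were higher in lumbar in 9 of 10 donors, and 6 of 7 in F2.

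The endothelial members rose and fell together from library to library. Over the 20 libraries, which share donors in pairs, Pearson r between pairs of endothelial members was 0.79 to 0.99 (median 0.91 over 21 pairs). With each group mean taken out it was 0.66 to 0.98 (median 0.86), so the shared variation was also present within groups. Acta2 followed the endothelial members with r of 0.76 to 0.87, and 0.65 to 0.84 within groups. Pdgfrb did so less, with 0.56 to 0.66, and 0.23 to 0.44 within groups. For Rgs5, r was -0.21 to -0.02 over all libraries and 0.16 to 0.37 within groups. Points in each case share donor, library preparation and scaling, and the values are given as a description.

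**Figure D3:**
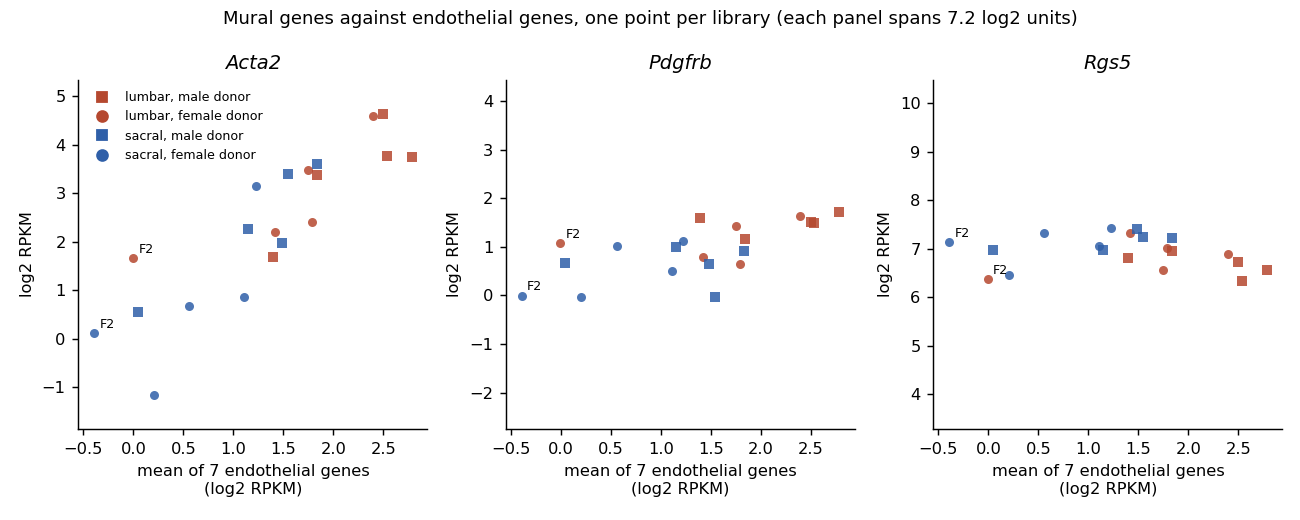
Log2 RPKM of Acta2, Pdgfrb and Rgs5 (vertical axes, each spanning the same width) against the mean log2 RPKM of the 7 endothelial genes (horizontal axis), one point per library, red lumbar, blue sacral, squares male, circles female. Acta2 climbs with the endothelial mean, Pdgfrb less so, and Rgs5 stays between 6.33 and 7.44, with both F2 libraries at the left.

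Of 12795 genes searched, the 5 most like the mean of the endothelial members over the 20 libraries were Cyyr1 (r = 0.985), Cd93 (0.985), Slco1a4 (0.983), C130074G19Rik (0.981) and Eltd1 (0.980). Cd93 and Eltd1 are endothelial surface receptors and Slco1a4 is a transporter of brain capillaries. For Tie1 alone the 5 were Igfbp7 (0.939), Drp2 (0.932), Ptprb (0.931), Sox18 (0.923) and Prx (0.923). Ptprb and Sox18 are on the endothelial list used here, and Prx is on the glial list. Acta2 was matched most closely by Myl9 (0.965) and Myh11 (0.933), a light and a heavy chain of smooth muscle myosin. The mean of the mural members was closest to Myl9 (0.942), Gucy1a3 (0.935), Cobll1 (0.928), Erg (0.908) and Myh11 (0.907). These are the same 5 genes that were closest to Acta2 alone, the member with the widest spread. Erg is on the endothelial list used here. The genes most like Rgs5 were Gm2199 (0.850), Mkrn1 (0.816), Ndel1 (0.807), Eif4a1 (0.801) and Arl6ip4 (0.787), and none of these 5 is on a vessel list used here.

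A further 28 endothelial genes were read beside the members. Because a gene could enter the test through the level where it was high, lists are counted over their genes with a mean above -1 log2 RPKM over all libraries, where 14.5% of all genes were higher in lumbar and 31.9% in sacral, with a median of -0.12 (log2). Of 25 such endothelial genes, 15 passed as higher in lumbar and 0 as higher in sacral, with a median difference of 0.87 (log2). Of the 4 most abundant genes, Ly6c1, a surface antigen of brain and nerve capillaries, rose by 1.31 ± 0.25 (log2, SE, limma adjusted p = 0.00028), from 3.21 ± 0.83 in sacral to 4.52 ± 0.78 log2 RPKM in lumbar libraries (SD, n = 10). The others did not pass. The sialomucin Cd34 differed by -0.05 ± 0.10, the adrenomedullin co-receptor Ramp2 by -0.14 ± 0.08 and the adhesion receptor Gpr116 by 0.17 ± 0.18 (log2, SE). Cd34 and Ramp2 also varied little between libraries, with SDs of 0.16 to 0.25 log2 within a level, where the endothelial members had 0.67 to 1.10. In the annotation Vps25 overlaps Ramp2 and a U4 gene overlaps Gpr116 on the same strand, and Gm16897 overlaps Cd34 on the opposite strand, which makes these values less certain.

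Of 16 further mural genes, 9 had such a mean and a test, and 6 of these passed as higher in lumbar and 0 as higher in sacral, with a median of 1.13 (log2). Of these 6, 1 had entered the test through the lumbar level alone. Of its 4 most abundant, Myl9 rose by 1.16 ± 0.25, the calponin relative Tagln by 0.71 ± 0.25 and the pericyte proteoglycan Cspg4 by 1.15 ± 0.24 (log2, SE), while Myh11 at 1.13 ± 0.46 did not pass (limma adjusted p = 0.051). This list had 22 empty cells of 320, in 7 genes, against 0 of 560 in the endothelial list.

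Ligands and co-receptors of these pathways were read in the same way. Of 14 from 20 with such a mean, 7 passed as higher in lumbar and 4 as higher in sacral, with a median of 0.64 (log2). Placental growth factor Pgf, a ligand of Flt1, had 2.20 ± 0.25 log2 RPKM in lumbar and 0.77 ± 0.71 in sacral libraries and differed by 1.43 ± 0.19 (log2, SE, limma adjusted p = 8.8e-06). Angpt2, the context-dependent ligand of Tek, stood at 3.08 ± 0.43 and 1.92 ± 0.41 log2 RPKM, a difference of 1.16 ± 0.12 (adjusted p = 5.8e-07), in 10 of 10 donors. Among the 4 most abundant of the list, Tjp1, a scaffold of tight junctions, was higher in lumbar libraries by 0.73 ± 0.16. Vegfb (-0.24 ± 0.08) and Pdgfa (-0.30 ± 0.07), also among these 4, were higher in sacral libraries. Vegfa, the main ligand of Kdr, differed by 0.14 ± 0.09 and did not pass. The co-receptor Nrp2 (-0.61 ± 0.09) and the ligand Figf (-0.53 ± 0.20), also known as Vegfd, were the other 2 higher in sacral libraries (log2, SE, limma). An opposite-strand gene, Mcph1, overlaps Angpt2. Of 4 lymphatic markers, Pdpn at 0.97 ± 0.13 was higher in lumbar, in 10 of 10 donors, and Lyve1 at -0.62 ± 0.23 in sacral libraries, in 8 of 10 (log2, SE, limma). Flt4, the receptor of VEGF-C, had -0.78 ± 1.09 log2 RPKM in lumbar and -2.42 ± 1.10 in sacral libraries and entered the test through the lumbar level alone. The transcription factor Prox1 was not tested, at -3.47 ± 1.05 in lumbar and -1.70 ± 0.86 in sacral libraries (SD, n = 10), lower in lumbar in 10 of 10 donors.

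**Figure D4:**
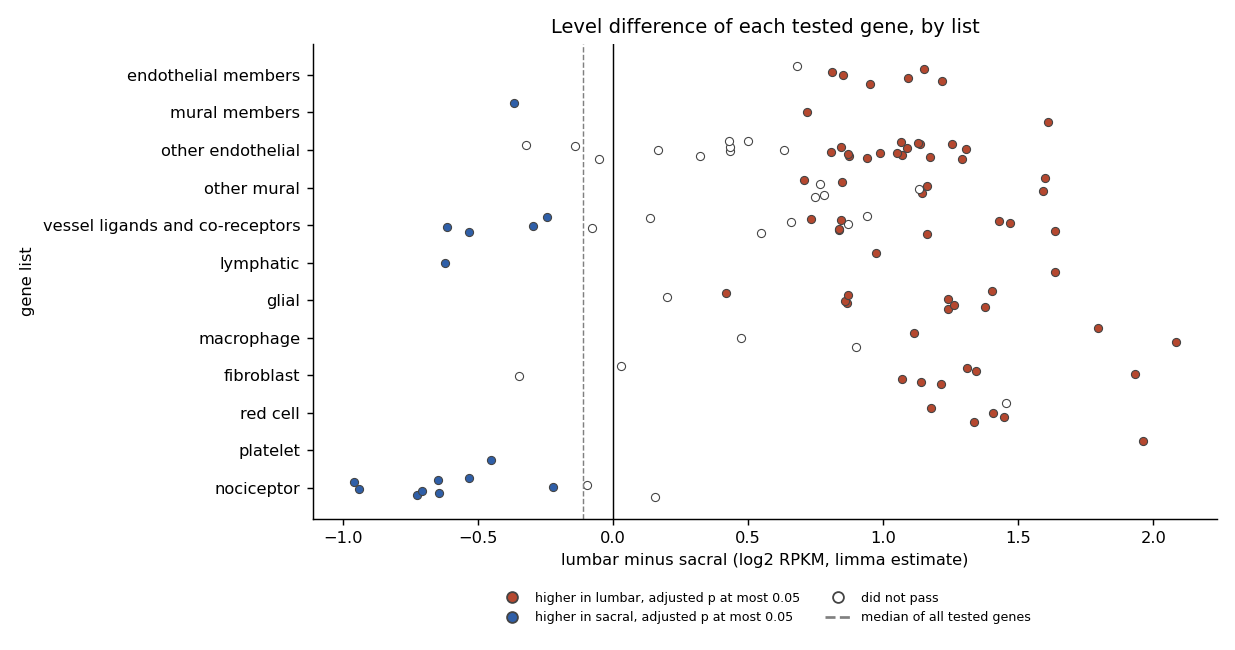
Limma estimate of the lumbar minus sacral difference in log2 RPKM (horizontal axis) for each tested gene of 12 lists (vertical axis), filled red where higher in lumbar and blue where higher in sacral at the adjusted threshold, open where it did not pass, including genes that entered the test through 1 level alone. The dashed line is the median of all genes at -0.11, and vessel, glial and fibroblast genes lie mostly right of it while neuron genes lie mostly left.

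Markers of other cells that a ganglion holds were read in the same fit and counted in the same way, beside 14.5% of all genes higher in lumbar and 31.9% in sacral. Of 10 glial genes, 9 passed as higher in lumbar, and their summed level was 1509 to 3111 RPKM in lumbar and 980 to 1609 RPKM in sacral libraries, higher in lumbar in 10 of 10 donors. Among the most abundant, Fabp7, a fatty acid binding protein of satellite glia, rose by 1.38 ± 0.18, and Pmp22, a myelin protein, differed by 0.20 ± 0.10 and did not pass (log2, SE). The 10 macrophage genes summed to 3.85 to 18.7 RPKM in lumbar and 2.16 to 5.23 RPKM in sacral libraries. Of the 5 tested, 3 entered through the lumbar level alone, so no count of calls is given. Their defining markers were at few reads, and C1qa and Cx3cr1 had no value in 7 of 20 libraries each. Of 7 fibroblast genes 5 passed as higher in lumbar, including Dpt, which entered the test through the lumbar level alone. Dcn, the most abundant, differed by -0.35 ± 0.19, and the summed level (72.6 to 328.1 RPKM against 79.1 to 179.8) was higher in lumbar in 4 of 10 donors. The red cell genes summed to 1.14 to 16.8 RPKM in lumbar and 0.52 to 6.95 RPKM in sacral libraries, and 4 of the 5 tested entered through the lumbar level alone. Of 5 platelet genes, Pf4 also entered that way, and Gp1bb, which overlaps Sept5 on the same strand, was higher in sacral libraries. Of 10 neuron genes, 0 passed as higher in lumbar and 8 as higher in sacral, with a median of -0.64, and Trpv1 itself was -0.96 ± 0.15 (log2, SE, limma adjusted p = 3.6e-05).

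Covariates in the same fit bear on how far these cells move with the vessel result. With the mean of the 10 glial genes added, 0 of 10 members passed in limma and 0 had an unadjusted p under 0.05, while 0.552% of all genes passed and 10.1% had an unadjusted p under 0.05. The differences were then -0.15 for Pecam1, -0.17 for Cdh5, -0.26 for Kdr, -0.16 for Flt1, -0.43 for Cldn5, -0.85 for Tie1, -0.72 for Acta2, 0.33 for Tek, 0.26 for Pdgfrb and -0.29 for Rgs5 (log2, adjusted p of 0.51 to 0.95). The glial mean itself was 6.15 ± 0.39 in lumbar and 5.18 ± 0.40 in sacral libraries (mean log2 of RPKM plus 0.1, SD, n = 10) and higher in lumbar in 10 of 10 donors, so the level and the glial content cannot be told apart. With the mean of the macrophage genes as the covariate, 0 of 10 members passed, 1 (Pdgfrb, 0.59 ± 0.24) had an unadjusted p under 0.05, and 13.9% of all genes passed while 30.4% had an unadjusted p under 0.05. The differences were then 0.35 for Pecam1, 0.41 for Cdh5, 0.30 for Kdr, 0.46 for Flt1, 0.53 for Cldn5, 0.63 for Tek, 0.08 for Tie1, 0.82 for Acta2 and -0.22 for Rgs5 (log2, limma adjusted p of 0.21 to 0.92), each smaller in size than without the covariate. The macrophage mean was -0.66 ± 0.71 in lumbar and -1.63 ± 0.29 in sacral libraries (same scale, SD, n = 10) and higher in lumbar in 9 of 10 donors, so the level and the macrophage content cannot be told apart either.

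**Figure D5:**
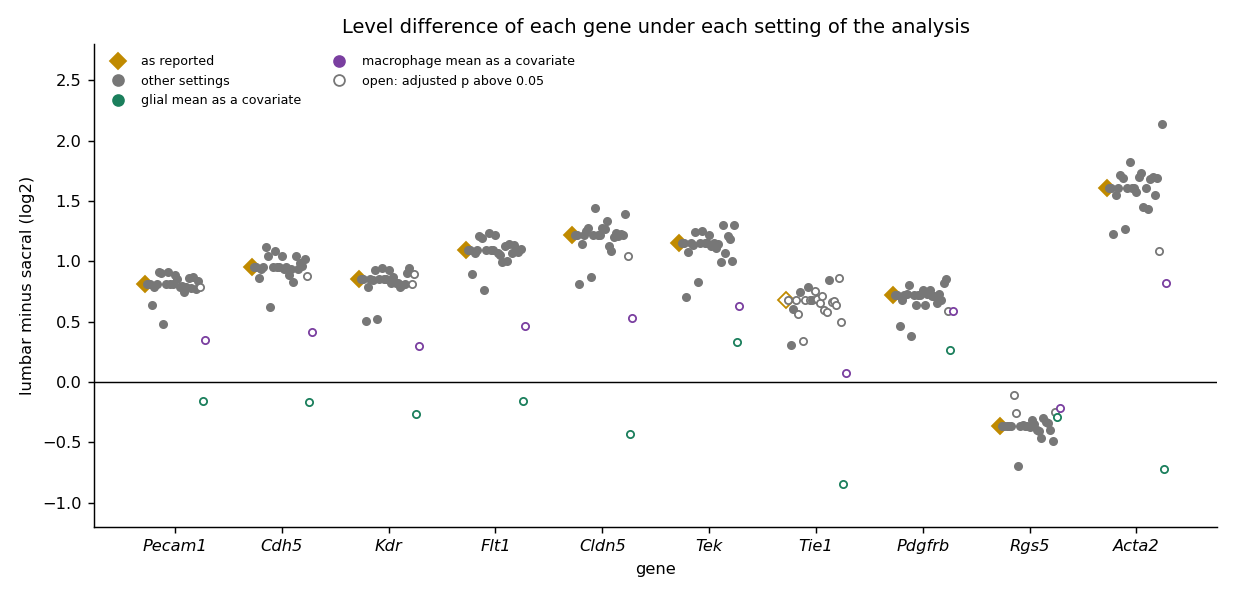
Lumbar minus sacral difference (log2, vertical axis) of each gene (horizontal axis) as reported (gold diamond) and under each other setting of the analysis (circles; green with the glial mean and purple with the macrophage mean as a covariate), open where the adjusted p was above 0.05. The grey points of each gene keep one sign, and the green points of 7 genes change sign.

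Female and male donors were compared over both levels and within each. No member passed in limma over both levels (0 of 10, with 0.0552% of all genes passing), and 5 of 10 had an unadjusted p under 0.05, as did 14.6% of all genes (2373 of 16304). The level was lower in females for 9 of 10 members, by 0.25 (Pdgfrb) to 1.10 (Acta2) on the log2 scale, with limma adjusted p of 0.16 to 0.58. Pecam1 had the lowest adjusted p, at -0.91 ± 0.27 (log2, SE, adjusted p = 0.16). Its 5 lumbar male libraries ran from 2.27 to 3.43 log2 RPKM and its 5 lumbar female libraries from 0.45 to 2.74. Its sacral male libraries ran from 0.87 to 2.37 and its sacral female libraries from 0.05 to 1.66. Without F2 the sex difference was -0.61 for Pecam1, -0.40 for Cdh5, -0.44 for Kdr, -0.42 for Flt1, -0.23 for Cldn5 and -0.27 for Tie1 (log2, limma adjusted p of 0.36 to 0.85). Tie1 gave -0.78 without F3 and -0.74 without M5, and Pdgfrb -0.12 without F1 and -0.39 without F3, none of which passed. Rgs5 differed by 0.04 ± 0.14 (limma adjusted p = 0.93). With the glial mean as a covariate, Pecam1 was -0.54, Cdh5 -0.24, Kdr -0.36, Flt1 -0.27 and Cldn5 -0.12 by sex (log2). Tek was then -0.29, Tie1 0.086, Pdgfrb -0.078 and Acta2 -0.22, and 0 of 10 members passed (5 of 16304 genes did). Within lumbar libraries 1 of 10 and within sacral libraries 2 of 10 members had an unadjusted p under 0.05, as did 11.4% of 16386 and 8.09% of 16321 genes, and 0 passed at either level, where 0.0427% and 0.0368% of all genes did. The sex difference of the level difference passed for 0 of 10 members and for 0 of 16304 genes in limma (668 genes at an unadjusted p under 0.05, 0 of them members), and it was largest for Acta2 at 1.05 ± 0.86 (log2, SE). In male donors alone the level difference was 1.08 for Acta2 and in female donors alone 2.14.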

How the data were processed

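RNA was measured by sequencing of 20 libraries placed in their groups by their labels. The authors aligned reads to mm9 with Subread, used featureCounts on Ensembl genes for uniquely mapped reads, and scaled by TMM (edgeR 3.12.1) before voom (limma 3.26.9). The deposited values are log2 RPKM, with an empty cell where a gene had no reads, and every column has the same median, a step the methods do not describe. Symbols and positions came from the NCBIM37 annotation, which matched 37205 identifiers. Because 98.2% of 314129 low values were whole reads within 0.01 of a read, reads were worked back for depth and alternatives. Depth speaks to counting error alone.

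The deposited log2 values were tested with limma 3.58.1 (R 4.3.3), without a pseudocount, with 4 group means, donor as a random block (correlation 0.17), a variance trend, and Benjamini-Hochberg adjustment at 0.05. A gene needed a mean over -1 log2 RPKM, from 3 or more values, in any 1 group, which kept 16422, and the level difference could be fitted for the 16304 of these with a value in every group. Donors pair libraries by the animal numbers in the titles, and deviations from group means correlated by 0.18 on average within donors and by -0.04 between donors. The fit was tested on simulated data. The members and lists were chosen with earlier results of these data known. Named genes were the members, the 4 most abundant of each list, the 5 most alike by Pearson r among genes with a value in 20 libraries and a mean above 0, and a few others chosen after their values were seen. Not every gene under this rule is reported here. Alternatives were other filters, pseudocounts of 1 and 0.1, empty cells at 0.5 reads, other scalings, moderation without the trend, array weights, other donor models, each donor left out, each sex alone, an adjusted p of 0.01, and glial or macrophage covariates.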

Additional observations from a re-analysis of the deposited data

Results flagged for a closer look

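Pecam1 in the sacral library of donor M5 was 0.872 log2 RPKM, where the other 4 sacral male libraries lay between 1.99 and 2.37. Tie1 in the same library was -1.94, where the other 4 lay between -0.45 and -0.11. In both, the gap to the nearest library exceeded Dixon's critical share of the group's range for 5 samples (0.71). These were 2 of 40 groups of 5 libraries examined over the 10 members, and chance flags about 1 in 20.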

How the results depend on the processing

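Over 26 other settings the level differences of the 10 members gave 259 values, of which 224 kept their direction and their side of the threshold, 22 no longer passed, 6 newly passed (all Tie1) and 7 changed sign. Tie1 had no value under the stricter filter. The number of members higher in lumbar, 8 as reported, was 3 in female donors alone (Flt1, Tek and Acta2) and 0 with the glial or the macrophage covariate. The number higher in sacral, 1 as reported, was 0 after quantile normalization, with TMM factors, in female donors alone, with either covariate and at an adjusted p of 0.01. With the glial covariate Pecam1 was -0.15, Cdh5 -0.17, Kdr -0.26, Flt1 -0.16, Cldn5 -0.43, Tie1 -0.85 and Acta2 -0.72 (log2). Females alone left Pecam1 at 0.79, Cdh5 at 0.88, Kdr at 0.89, Cldn5 at 1.04, Pdgfrb at 0.59 and Rgs5 at -0.25 (log2, limma adjusted p of 0.078 to 0.36), with 5 donors in place of 10. Male donors alone left Kdr at 0.81 (limma adjusted p = 0.055) and Acta2 at 1.08 (adjusted p = 0.11). Over all genes, 2489 were higher in lumbar as reported, against 1404 with reads over the library total, 1152 in females alone, 5 with the glial and 706 with the macrophage covariate, and 1615 at an adjusted p of 0.01. Higher in sacral were 4947 as reported, 9589 over the library total, 2975 in males and 2519 in females alone, 85 with the glial and 1562 with the macrophage covariate. Without the replicate block of donors 6577 genes passed instead of 7436, and the block as a fixed donor effect gave 7171 and a call for Tie1 (0.68, adjusted p = 0.024); the other members kept their calls under both. Leaving out 1 donor at a time gave 8 to 9 members higher in lumbar and 1 higher in sacral. Over all genes the same fits gave 2172 to 2565 higher in lumbar and 4271 to 4986 higher in sacral. For sex, array weights (chosen for sex after seeing the data, like the covariates) gave 1 member, Pecam1 at -0.97 with a limma adjusted p of 0.043. That setting called 393 of 16304 genes by sex, against 9 as reported. Tie1 by sex was 0.086 with the glial covariate. Rgs5 by sex was -0.017 after quantile normalization, and -0.052 to 0.10 with 1 donor left out. The sex differences of the level difference changed sign without passing in any setting. Pecam1 gave 0.037 over the library total, 0.0041 with the macrophage covariate and -0.20 to 0.10 with 1 donor left out. Kdr gave -0.055 at a pseudocount of 1, -0.0076 with TMM factors and -0.066 to 0.27 with 1 donor left out. Flt1 gave -0.063 at a pseudocount of 1, -0.00039 after quantile normalization, -0.0063 with TMM factors, -0.0065 with array weights and -0.23 to 0.21 with 1 donor left out. For Cdh5 and Tek the ranges with 1 donor left out were -0.39 to 0.048 and -0.020 to 0.60. The cause of these changes was not tested. The members had at least 25 reads in every library, and depth bears most on Cldn5 and Acta2.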
